A study of Mus musculus with 2 samples.

Results

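Wnt target genes of the intestinal crypt were compared in small-intestinal organoids given RankL and in untreated ones. The set was chosen by gene symbol, with earlier results of these data known. Of its 10 genes, Axin2, Nkd1, Rnf43 and Znrf3 are negative-feedback targets, and Myc and Ccnd1 are growth targets. Ephb2 and Ephb3 are Eph receptor targets, and Tcf7 and Cd44 complete the set. Probes were assigned through the RefSeq accession in the scanner files, which gave 16 probes for 9 of the 10 genes, and Ccnd1 was not analysed here. A probe counted as measured when 1 of the RNAs, RankL or untreated, was well above background on both arrays. This held for 7 of the 9 genes, against 12877 genes or accessions in all. Tcf7 and Znrf3 did not pass.

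The RankL group was organoids from wild-type mice given recombinant mouse RankL, the cytokine that binds the receptor RANK and signals through NF-kB. Doses of 50 to 200 ng/ml are stated, and medium was renewed on days 2 and 5. The untreated group was organoids from wild-type mice without the cytokine. Both grew as epithelial structures in a crypt medium with EGF, Noggin and R-spondin. R-spondin is itself a Wnt agonist, and both groups received it. For these RNAs the sources used here state no single dose, harvest time, mouse strain or number of animals or cultures.

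In the crypt, Wnt ligands bind Frizzled and Lrp receptors, the destruction complex is held in check, and beta-catenin enters the nucleus and joins TCF/LEF factors at target genes. Some targets encode brakes on the same pathway. Axin2 is a scaffold of the destruction complex, Nkd1 binds Dishevelled, and Rnf43 and Znrf3 are membrane E3 ligases that remove Frizzled and are themselves cleared by R-spondin with its Lgr receptors. Others drive growth (Myc, Ccnd1) or position cells along the crypt axis (Ephb2, Ephb3). In the intestine the pathway maintains stem cells and Paneth cells.

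A single pair of RNAs was hybridised to 2 arrays of 1 slide, in both dye orientations. Array 1 carried the RankL RNA in Cy3 and array 2 carried it in Cy5. The pair counts as 1 replicate, which allows no statistical test. Each ± below is the SD between the 2 arrays, and it measures technical error only, since variation between cultures was not sampled. Between 38.3% and 43.4% of non-control spots were well above background, depending on RNA and array. All 9 epithelial markers were measured and none of 5 leukocyte markers with a probe was. Of 9 mesenchyme markers 4 were measured, and Col1a1, Col3a1, Pdgfra and Des were not well above background in either RNA on either array. The normalised intensities of the whole mesenchyme list summed to 2731 and 2697 on arrays 1 and 2 in RankL RNA, against 1966 and 1984 in untreated RNA. The 7 M cell markers had summed normalised intensities of 56810 and 58750 in RankL RNA, against 2755 and 2196 in untreated RNA.

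Sequences upstream of the members were examined for the binding motif of TCF/LEF factors, because the genes are known as targets of those factors. RefSeq promoter windows on build GRCm38.p6, running from 250 bases before to 50 after a transcript start, were found for 7 of the 10 genes (9 windows). Myc, Znrf3 and Ccnd1 were without a window. The motif was taken as CTTTG followed by a pair of letters that are each A or T, on either strand. It was in 0 of the 9 windows and in 16.9% of all 32851 windows. The 5-letter core alone (CAAAG or CTTTG) was in 1 of 9, that of Cd44 at position -163 from the start, against 53.9% of all windows. The members' windows had a median GC content of 64.3%, against 52.7% over all windows. Over the 25376 windows within the members' range of GC content, the motif was in 14.2% and the core in 52.6%. The kappaB consensus on either strand, which like the core was searched after the expression values had been seen, was in 1 of 9, that of Ephb2, against 4.51% of all windows. These matches are descriptions of letters and say nothing of binding. The 250 bases before the start are shown for Ephb2, the member farthest below 0, for Cd44, the member farthest above 0, and for Axin2, the usual reporter of the pathway. Capitals mark the TCF/LEF core in Cd44 and the kappaB match in Ephb2.
Ephb2, chr4:136836013-136836262, minus strand: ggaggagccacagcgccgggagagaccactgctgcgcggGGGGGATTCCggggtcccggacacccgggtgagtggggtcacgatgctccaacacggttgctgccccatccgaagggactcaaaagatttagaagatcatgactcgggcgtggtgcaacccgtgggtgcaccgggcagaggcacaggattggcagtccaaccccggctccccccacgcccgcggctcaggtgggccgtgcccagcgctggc
Cd44, chr2:102901666-102901915, minus strand: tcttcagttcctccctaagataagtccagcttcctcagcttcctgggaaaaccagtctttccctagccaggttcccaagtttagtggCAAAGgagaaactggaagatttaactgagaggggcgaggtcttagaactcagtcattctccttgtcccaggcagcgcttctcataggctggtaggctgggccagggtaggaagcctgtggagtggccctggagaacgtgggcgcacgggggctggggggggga
Axin2, chr11:108920099-108920348, plus strand: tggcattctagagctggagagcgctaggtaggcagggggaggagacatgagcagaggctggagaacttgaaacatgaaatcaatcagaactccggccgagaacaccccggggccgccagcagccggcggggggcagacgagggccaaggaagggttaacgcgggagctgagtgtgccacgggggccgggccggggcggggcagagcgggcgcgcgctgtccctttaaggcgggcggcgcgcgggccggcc

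Of the 7 measured members, 2 were lower with RankL by the size rule, 0 were higher and 5 met neither side. To meet this rule a gene's log2 ratio (RankL over untreated) had to average 1 or more in size, a 2-fold difference, with both arrays on the same side of 0 by 0.5 or more. Over all measured genes, 2.5% were lower and 5.47% higher by the same rule. Members were picked with earlier results of these data known, so values of all genes are set beside them only as a description. The genes called lower were Myc and Ephb2, and on array 2 alone or with the median of each gene's probes the count was 0. On the mean log2 ratio 5 of the 7 were below 0, as were 49.0% of all measured genes. The median of the 7 was -0.48, against 0.0086 over all measured genes. This median is the value of Axin2, which passed the filter only through untreated RNA. Among members above background in both RNAs, which leaves out Axin2, 4 were below 0 and the median was -0.47. The members' order from lowest to highest was Ephb2, Myc, Ephb3, Axin2, Rnf43, Nkd1 and Cd44. Ephb2 and Myc were closer to each other than the SD of Ephb2, and Ephb3, Axin2 and Rnf43 lay within 0.06 of one another. Cd44 stood apart from the other 6 as the member farthest above 0.

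**Figure D1:**
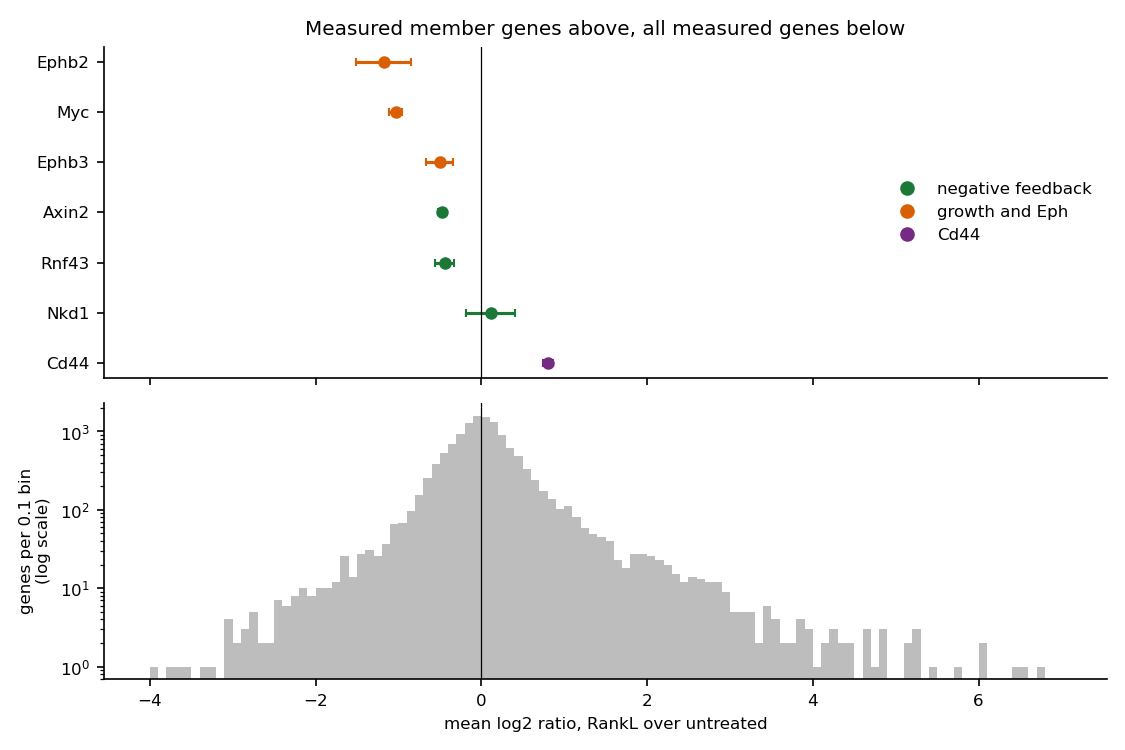
The upper panel plots the mean log2 ratio of RankL over untreated for the 7 measured member genes, with bars for the SD of the 2 arrays, and the lower panel the same ratio for 12877 measured genes on a log count axis. Ephb2 and Myc lie near -1, Ephb3, Axin2 and Rnf43 near -0.5, Nkd1 near 0 and Cd44 at 0.80.

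The negative-feedback genes come first. Spot brightness is given unnormalised and by dye, so each pair sets a spot on 1 array against its spot on the other. Over 14499 probes above background in both RNAs, the median of RankL over untreated was 0.86 in Cy3 and 0.96 in Cy5. RankL brightness thus ran low in general, while the log2 ratios are normalised. For Axin2, spot brightness above local background was 25.0 in RankL RNA against 66.5 in untreated RNA in the Cy3 channel, and 25.5 against 52.0 in Cy5. In each dye the untreated value exceeded the RankL value, and the RankL signal was not well above background on either array. Axin2 thus passed the filter only through the RNA in which it was brighter. Its normalised log2 ratio was -0.48 ± 0.039, which as a bound is at least 1.39-fold lower with RankL. This ratio includes an offset of 50 intensity units added to each channel, which is larger than the RankL spot signals themselves. With an offset of 16 the ratio was -0.74 and by the scanner software's own log ratio it was -1.17, in each case with a RankL signal that was not above background.

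Nkd1 did not move in one direction. Its brighter probe gave 71.0 in RankL RNA against 59.0 in untreated RNA in Cy3, and 46.0 against 46.5 in Cy5. The ratios were 0.32 on array 1 and -0.10 on array 2, with a mean of 0.11 ± 0.30, so the value is within the difference between the arrays. A second Nkd1 probe was above background in neither RNA.

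Rnf43 was bright in both RNAs, so its ratio depended little on the offset. It gave 1090.5 in RankL RNA against 1973 in untreated RNA in Cy3, and 1312 against 1710.5 in Cy5. In each dye the RankL value was below the untreated value. The log2 ratio was -0.44 ± 0.12, short of the 2-fold rule, and -0.45 with an offset of 16. Its relative Znrf3 was dim, at 33 in RankL RNA against 42 in untreated RNA in Cy3, and 27.5 against 63.0 in Cy5. The RankL signal of Znrf3 was above background on 0 arrays and the untreated signal on 1, so no ratio is read for it.

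**Figure D2:**
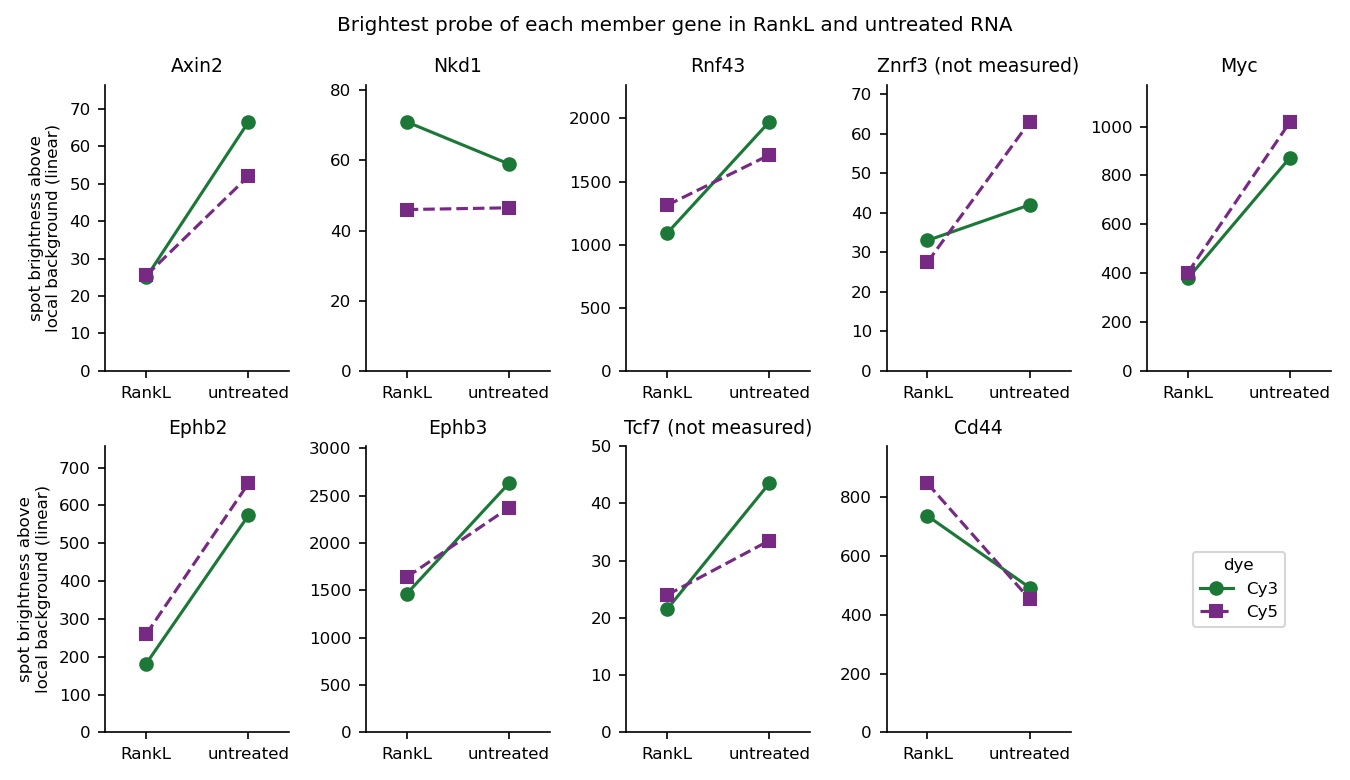
Each panel shows 1 member gene, with the spot brightness above local background on a linear axis for RankL RNA at left and untreated RNA at right, and 1 line for each dye. In Axin2, Rnf43, Myc, Ephb2 and Ephb3 both lines are lower in RankL RNA, in Cd44 both are higher, and in Nkd1 the Cy5 line is nearly flat. The labels give 2 genes, Znrf3 and Tcf7, as not measured. Brightness is not normalised between arrays, and RankL values ran low over all probes (median ratio 0.86 in Cy3 and 0.96 in Cy5).

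Among growth targets, Myc, the transcription factor that drives ribosome and biomass production, was lower with RankL. Its brightest probe, averaged over 10 spots on each array, gave 378.9 in RankL RNA against 873.6 in untreated RNA in Cy3, and 402.2 against 1020 in Cy5. The RankL value was the lower in each dye. The log2 ratio was -1.03 ± 0.082, a 2.05-fold difference, with an SD between the 10 spots of 0.16 on each array. The value on array 2 alone was -0.98, just short of 1 in size, so Myc did not meet the rule on that array alone. The other Myc probes read -0.88 ± 0.22 and -0.49 ± 0.11, and neither met the rule.

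Of the Eph receptors, which sort crypt cells by repulsion from ephrin-B on villus cells, Ephb2 was lower and Ephb3 was not by the rule. Ephb2 gave 182.0 in RankL RNA against 574.0 in untreated RNA in Cy3, and 260.0 against 658.5 in Cy5. Its log2 ratio was -1.18 ± 0.33, that is -1.41 on array 1 and -0.94 on array 2, so array 2 alone fell short of 2-fold. A second Ephb2 probe, not above background in RankL RNA, read -0.32 ± 0.036, or at least 1.25-fold lower. Ephb3 was well above background in both RNAs, at 1463 in RankL RNA against 2630 in untreated RNA in Cy3, and 1639 against 2372 in Cy5. Its log2 ratio was -0.50 ± 0.16, lower on both arrays and short of the rule.

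Of the 3 genes with several measured probes, Myc and Ephb2 had probes farther apart with the offset than by the scanner software, and Cd44 had them closer. By the software the 3 Myc probes read -1.21 ± 0.16, -1.27 ± 0.26 and -1.15 ± 0.022. The 2 Ephb2 probes read -1.49 ± 0.29 and -1.53 ± 0.45, the second with RankL RNA not above background on either array. The probes of Myc spanned 0.13 by the software and 0.55 with the offset, and those of Ephb2 0.036 and 0.85. The 2 measured Cd44 probes spanned 0.17 by the software and 0.078 with the offset.

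**Figure D3:**
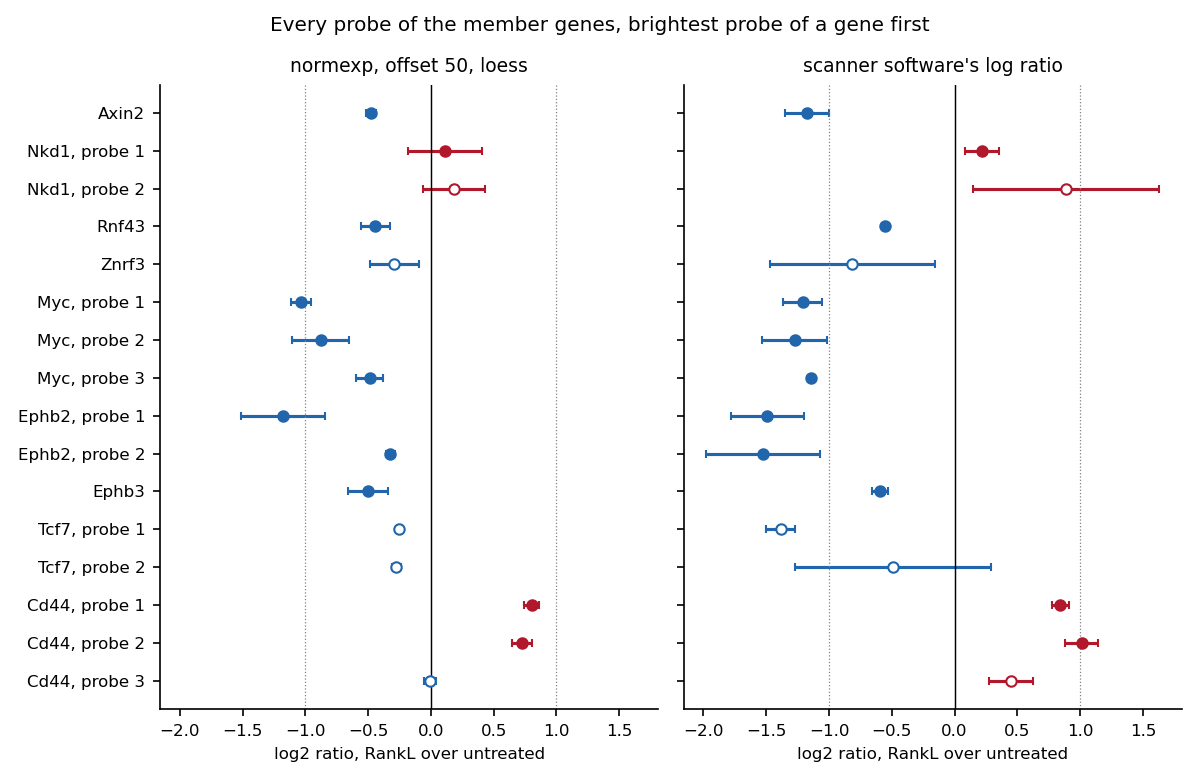
Each row is 1 of 16 member probes, and the points are mean log2 ratios of RankL over untreated with bars for the SD of the 2 arrays, on the left with a normexp offset of 50 and on the right by the scanner software. Open points are probes not measured, and dotted lines mark -1 and 1. The 3 Myc probes and the 2 Ephb2 probes spread on the left and line up on the right.

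Cd44, the hyaluronan receptor of the crypt base, ran against most of the other measured members. Its brightest probe gave 735.5 in RankL RNA against 492.0 in untreated RNA in Cy3, and 846.0 against 452.5 in Cy5. In each dye the RankL value exceeded the untreated value. The log2 ratio was 0.80 ± 0.057, a 1.74-fold difference that missed the rule. A second probe, printed 10 times, read 0.72 ± 0.077, with SDs between spots of 0.11 and 0.24, and 1.01 by the scanner software. The remaining probe was above background on 1 array in RankL RNA and on 0 in untreated RNA.

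Tcf7, which encodes the TCF factor TCF1 and is itself a Wnt target, was dim. Its brighter probe gave 21.5 in RankL RNA against 43.5 in untreated RNA in Cy3, and 24.0 against 33.5 in Cy5, and the untreated RNA was above background on 1 array. No ratio is read for it.

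Set side by side, the negative-feedback targets had a median log2 ratio of -0.44 over the 3 of 4 measured, and the growth and Eph targets -1.03 over the 3 of 4 measured. The difference of medians was 0.59. It ranged from 0.31 with the median of each gene's probes to 0.87 with genes above background in both RNAs, and it has no test, since 1 RNA pair gives 1 value per gene. Distance from background differed from gene to gene too. Axin2 and Nkd1 were at most 71.0 units above local background in any channel, while the brightest probes of Myc, Ephb2 and Ephb3 were at 182.0 or more. The other measured probes of Myc and Ephb2 fell below 182.0 in RankL RNA in both dyes. Rnf43, the remaining measured feedback gene, was brighter than Myc and Ephb2 in both RNAs and both dyes, so the feedback genes were not dim as a group. Among members above background in both RNAs on both arrays, the feedback genes were Rnf43 at -0.44 ± 0.12 and Nkd1 at 0.11 ± 0.30. The growth and Eph genes were Ephb3 at -0.50 ± 0.16, Myc at -1.03 ± 0.082 and Ephb2 at -1.18 ± 0.33. By the scanner software Rnf43 read -0.56 ± 0.017 and Nkd1 0.22 ± 0.14, and Ephb3 read -0.59 ± 0.066, Myc -1.21 ± 0.16 and Ephb2 -1.49 ± 0.29. Rnf43 was thus near Ephb3 and above Myc and Ephb2 by both, while Axin2, with RankL RNA not above background, has only a bound.

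Of 8 listed markers of dividing cells, 0 met the size rule. All 8 were below 0, with a median of -0.53 and a range from -0.78 to -0.31. Their summed normalised intensity was 13550 and 12320 in RankL RNA, against 18900 and 19550 in untreated RNA. For the 5 Paneth cell markers with a probe, of which 2 were higher and 1 lower, the sums were 5484 and 5596 in RankL RNA, against 2012 and 1931 in untreated RNA. Of 8 enterocyte markers 4 were higher and 1 lower, with a median of 1.00 and a range from Fabp1 at -3.02 ± 0.29 to Anpep at 2.81 ± 0.23. Their sums were 114400 and 104300 in RankL RNA, against 103100 and 124900 in untreated RNA. Their part in the members' ratios was not tested. In RNA from whole organoids, fewer cells of a type and less RNA per cell cannot be told apart.

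Other Wnt target genes of the crypt spread widely. Of 15 listed, 10 were measured. By the size rule 2 were higher and 2 lower, and the list median was -0.37. Lgr5, the R-spondin receptor of stem cells, was the lowest at -2.30 ± 0.14, at 209.0 in RankL RNA against 1749.5 in untreated RNA in Cy3, and 325.0 against 1545 in Cy5. Cdca7, a Myc-responsive gene, was at -1.02 ± 0.059, and at -0.98 on array 1 alone, short of the rule. Tnfrsf19 (Troy), a receptor of the TNF receptor family expressed in stem cells, was at 3.12 ± 0.010. Nkd2, the close relative of Nkd1, was at 178.5 in RankL RNA against 11.0 in untreated RNA in Cy3, and at 180.5 against -1.5 in Cy5. With untreated RNA above background on neither array, Nkd2 was at least 3.29-fold higher. The 2 Naked genes therefore read differently, Nkd2 by at least 3.29-fold and Nkd1 by 0.11 ± 0.30 on the log2 scale.

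Upstream of the targets, most genes were near 0. Of 25 Wnt ligand, R-spondin and ligand-export genes, 7 were measured, and 1 was higher. This was Wnt10a at 3.13 ± 0.12, with 642.0 in RankL RNA against 43.0 in untreated RNA in Cy3 and 719.5 against 24.0 in Cy5, and untreated RNA above background on 1 array. Wnt5b was lowest of that list at -0.018 ± 0.056. Of 27 genes of the destruction complex and beta-catenin transducers, 21 were measured, with a median of 0.23. By the size rule 1 was higher, and on array 2 alone 2 were. The gene higher by the mean of both arrays was Tcf7l1, a TCF family member that mostly represses. It read 3.43 ± 0.58 by its brightest probe and 1.41 by a second probe. Untreated RNA of that brightest probe was above background on 1 array. Tle1, a corepressor of TCF factors, was lowest at -0.33 ± 0.29. Only 2 of 15 secreted or membrane Wnt antagonists were measured, Sfrp5 at -0.11 and Shisa2 at -0.38 ± 0.097. Sfrp5 was above background in untreated RNA on 1 array and read 0.27 by the scanner software, so its direction is not settled.

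**Figure D4:**
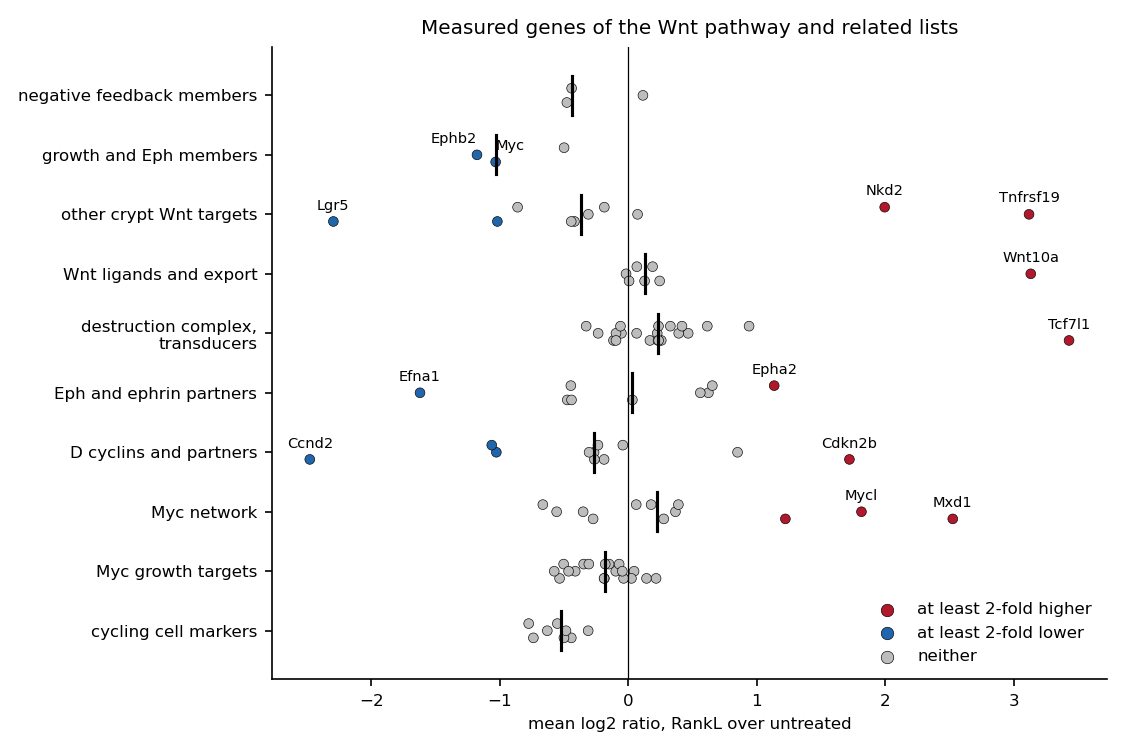
Each point is the mean log2 ratio of RankL over untreated of 1 measured gene, by list, with a vertical bar at the list median and colour for the size rule. Most genes of the ligand and transducer lists lie near 0, and only Wnt10a and Tcf7l1 of these lists met the size rule. Ccnd2, Lgr5 and Efna1 lie farthest left. The point for Nkd2 is a fitted ratio of a gene not above background in untreated RNA.

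Around the Eph members, 9 of 15 Eph and ephrin partners were measured. The list held 1 gene higher and 1 lower, and its median was 0.031. That median was 0.25 on array 1 alone, -0.18 on array 2 alone and 0.51 by the scanner software. Epha2, a receptor of ephrin-A ligands, was at 1.13 ± 0.29, and its ligand gene Efna1 at -1.62 ± 0.084. On array 2 alone Epha2 read 0.93, short of the rule. Epha2 gave 1032.5 in RankL RNA against 453.5 in untreated RNA in Cy3, and 886.5 against 442.5 in Cy5. Efna1 gave 92.0 in RankL RNA against 485.0 in untreated RNA in Cy3, and the order was the same in Cy5.

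Around Ccnd1, 11 of 13 listed D cyclins and partners were measured. The list held 1 gene higher and 3 lower, and its median was -0.26. Ccnd2, a D-type cyclin that drives the G1 phase, was lowest at -2.48 ± 0.73, at 995.0 in RankL RNA against 6891.5 in untreated RNA in Cy3, and 1652 against 10625 in Cy5. The INK4 inhibitors of cyclin D kinases split. Cdkn2b was at 1.72 ± 0.027, while Cdkn2d was at -1.06 ± 0.12 and Cdkn2c at -1.03 ± 0.47. On array 2 alone Cdkn2d read -0.98 and Cdkn2c -0.69, both short of the rule.

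Around Myc, all 12 genes of its network were measured, with 3 higher, 0 lower and a list median of 0.23. Mxd1, a partner of Max that opposes Myc, was at 2.52 ± 0.15, although its second probe read 0.49. The Myc relatives Mycl and Mycn were at 1.81 ± 0.56 and 1.22 ± 0.40, Mycn was short of the rule on array 1 alone at 0.94, and Mxd3 was lowest at -0.67 ± 0.24. Genes that Myc is known to raise in ribosome biogenesis and growth were closer to 0. Of 20, 19 were measured, 0 met the rule in either direction, and 15 were below 0 with a median of -0.18. Their range ran from Polr1b, a subunit of RNA polymerase I, at -0.58 ± 0.26 to Ldha, lactate dehydrogenase, at 0.22 ± 0.53. Around Cd44, 3 of 10 hyaluronan genes and Cd44 partners were measured and none met the rule, with the hyaluronidase gene Hyal2 highest at 0.74 ± 0.092 and the hyaluronan receptor gene Hmmr lowest at -0.18 ± 0.40.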

How the data were processed

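RNA from mouse organoids was hybridised to 2 dual-channel Agilent arrays. The deposited intensity values are median pixel brightness of spot and local background, not normalised, from Feature Extraction 10.5.1.1 per the file headers (the submitters' processing notes give 8.5.1.1). The deposited log10 ratios, red over green, had background subtraction and dye normalisation by that software, per the file headers. Values of the deposited series matrix equal them to within 5e-06, with array 1 turned.

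Here normexp background correction (offset 50, limma 3.58.1, R 4.3.3) was followed by loess within each array with the 1639 control spots at weight 0. Outlier spots were left out and spots of 1 probe averaged. Ratios were expressed as RankL over untreated and averaged over arrays as 1 replicate. The deposited log10 ratios were rescaled to log2 where quoted. Of 41174 probes, 16458 were measured, and repeated probes needed 0.5 of their spots above background. A gene took its brightest measured probe. "At least" folds compare the brighter RNA with the array's dimmest above-background signal (Aquantile channels) or with the dim probe itself if higher. RefSeq accessions on GRCm38.p6 named 65.4% of 41119 probes left after outliers. The array design is on mm9, so no gene coordinates are given.

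All members were named and, in each further list, the genes meeting the size rule with the highest and the lowest. No gene was sought by likeness of pattern, since 1 RNA pair gives 1 ratio. Members and lists were chosen with earlier results of these data known. Normalisation and the size rule were tested on data simulated at spots above background in both RNAs, so dim genes were not covered. Spots were not averaged into probes there. The simulated noise was set by hand at the same level for all spots, while the SD between the real arrays differed from gene to gene. True log2 changes of 2.5 and -2.5 read 1.81 and -2.015 as medians, and 100% met the size rule. Those of 1.5 and -1.5 read 1.14 and -1.27, and 68% and 78% met it. Ratios were thus shrunk toward 0. Of 15229 unchanged spots, 0 met the rule, which with noise set in this way gives no rate of false calls for the real arrays. Alternatives were the scanner software's ratios, an offset of 16, median centring, other filters on dim probes, each array alone and the median of a gene's probes.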

Additional observations from a re-analysis of the deposited data

How the results depend on the processing

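The direction of 6 of the 7 measured members was the same under each alternative run for them. Nkd1 was the exception, at -0.097 on array 2 alone, and it had not met the rule. Of 55 member values under alternatives, 54 had the sign given above. Several of these values take the same probe and normalisation as the main setting and so repeat it. All come from the same 2 arrays, so the tally is no independent check. The count of members lower by the size rule was 2 and became 0 with the median of probes, and it ran from 0 (array 2 alone) to 2 (array 1 alone) over single arrays. With the scanner software's ratios it was 3, with Axin2 added, and the background moved to 1148 genes higher and 781 lower, against 704 and 322. The negative-feedback median was -0.16 with genes above background in both RNAs only, which leaves out Axin2, and the growth and Eph median was -0.75 with the median of probes. The TCF/LEF core alone, chosen after seeing the data, was in 1 of 9 promoter windows against 0 for the full motif. The 15 list genes that met the rule kept their direction in all 117 values that could be taken. Nkd2, Wnt10a and Tcf7l1 have no value with genes above background in both RNAs only. Their untreated RNA was not above background on both arrays, so that filter removes their calls. Array 2 alone ended the calls of Epha2 (0.93), Cdkn2c (-0.69) and Cdkn2d (-0.98), and array 1 alone those of Cdca7 (-0.98) and Mycn (0.94). By the scanner software Sfrp5 turned to 0.27 and Tcf7l1, Wnt10a and Mycn read 5.19, 5.05 and 2.12. With the median of probes Mxd1 read 1.51. The median of the Eph and ephrin list was 0.51 by the scanner software, 0.25 on array 1 alone and -0.18 on array 2 alone. The series matrix was not run separately because it equals the scanner software's ratios. No paired analysis was possible because both arrays hold 1 RNA pair. Brightness limits Axin2, Nkd1, Znrf3 and Tcf7 most, since their signals were near background.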
